A study of Mus musculus with 12 samples.

Results

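The transcripts described here are 10 genes of the transforming growth factor beta (TGF-beta) pathway: the ligands Tgfb1, Tgfb2 and Tgfb3, the latent binding proteins Ltbp1 and Ltbp2, the receptors Tgfbr1 and Tgfbr2, and the intracellular mediators Smad2, Smad3 and Smad7. They were chosen by symbol, and all 10 were among the 55450 genes of the deposited table and among the 16094 genes with enough counts to be tested. Bulk RNA-seq was made from the outer cortex of the kidney of 12 mice at 12 weeks of age, on the FVB/N background. Tg26 mice are hemizygous for a partial HIV-1 transgene that the kidney's own cells express, and they serve as a model of HIV-associated nephropathy. C16 is a small-molecule inhibitor of PKR, the kinase that double-stranded RNA activates. The 4 groups of 3 mice were C16-treated Tg26 mice, untreated Tg26 mice, C16-treated WT mice and untreated WT mice. Treated mice were given 10 µg per kg of C16 into the peritoneum 3 times a week beginning at week 6, in DMSO-PBS, and the labels call the other mice controls without naming a vehicle. The methods name mice of both sexes, matched by treatment group, but transcripts of the Y chromosome were present in all 12 libraries. As a model the transgene holds only part of the virus, C16 can act on other targets, and nothing given here sorts the cortex into cell types.

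TGF-beta ligands are secreted in a latent form, held in the matrix by latent TGF-beta binding proteins (LTBPs), and have to be released before they can act. The free ligand binds the type II receptor (Tgfbr2), which recruits and phosphorylates the type I receptor (Tgfbr1). That receptor phosphorylates Smad2 and Smad3, which enter the nucleus with Smad4 and switch on target genes, while Smad7 is induced by the pathway and blocks it at the receptor. In the kidney this pathway is best known for driving matrix production and fibrosis.

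The libraries held 19877877 to 27000388 counts, and values below are CPM, counts scaled to a common library size by the trimmed mean of M values (TMM). The 16094 genes were all tested in the same edgeR quasi-likelihood fit with Benjamini-Hochberg adjustment, and a gene is called where its adjusted p is under 0.05. Markers of the proximal tubule, the main cell of the cortex, summed to 16580 to 53940 CPM in every library, as the tissue label would have it. Tg26 replicate 1 stood apart from the other Tg26 mice. It had 4159 CPM of summed kidney injury markers (Spp1, Havcr1, Lcn2 and others) against 1078 and 1289 CPM in Tg26 replicates 2 and 3. It had 16580 CPM of proximal tubule markers against 33900 and 30110 CPM. Spp1 held 3366, 740.5 and 936 CPM of these injury sums, and Havcr1 held 118, 24 and 38.3 CPM. Kap held 7326, 16870 and 14610 CPM of these tubule sums. For the ligands, Ltbp2 and the calls that rest on untreated Tg26 mice, values without Tg26 replicate 1 are also given.

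The stretches just upstream of the start sites of Tgfb1, Tgfb2 and Ltbp2 are shown because these genes were among those called between Tg26 and WT kidneys and had a RefSeq promoter entry. Tgfbr2 was called and had an entry too, but its stretch is not shown. Tgfb3, Smad2 and Smad7 had no matching entry. Capitals mark CAGAC, or GTCTG on the other strand, the core letters that SMAD proteins bind. The sequences are RefSeq's (GRCm38.p6), 5′ to 3′ on the strand of the gene: Tgfb1 from chr7:25686752-25687001 (plus strand), Tgfb2 from chr1:186705990-186706239 (minus strand), and Ltbp2 from chr12:84876533-84876741 (minus strand), which is cut where the annotated exon begins.
Tgfb1: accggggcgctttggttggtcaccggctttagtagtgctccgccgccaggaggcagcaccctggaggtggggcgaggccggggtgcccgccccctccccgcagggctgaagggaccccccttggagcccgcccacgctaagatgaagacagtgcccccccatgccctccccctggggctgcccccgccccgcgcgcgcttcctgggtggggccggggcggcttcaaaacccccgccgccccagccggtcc
Tgfb2: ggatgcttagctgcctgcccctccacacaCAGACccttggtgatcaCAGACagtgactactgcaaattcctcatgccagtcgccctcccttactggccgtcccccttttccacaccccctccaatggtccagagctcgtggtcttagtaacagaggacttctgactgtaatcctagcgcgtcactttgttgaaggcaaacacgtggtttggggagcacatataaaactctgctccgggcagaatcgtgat
Ltbp2: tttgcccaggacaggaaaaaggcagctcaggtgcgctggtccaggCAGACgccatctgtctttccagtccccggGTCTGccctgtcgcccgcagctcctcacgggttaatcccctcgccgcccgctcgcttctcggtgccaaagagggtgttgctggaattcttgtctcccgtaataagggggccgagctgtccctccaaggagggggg
The Tgfb1 stretch held 0 such cores and was 75.2% G and C, whereas that of Tgfb2 held 2 and was 53.6% G and C. In Ltbp2 there were also 2 cores, 1 on each strand. The window of Tgfbr2 held 1 core. Of the genes not called, Ltbp1 held 1 and 2 cores in its windows, Tgfbr1 held 0 and 1, and Smad3 held 0. A core of this length is common, since 42.2% of 32851 mouse promoter windows of 250 bases held at least 1 on either strand. The GC box (GGGCGG, or CCGCCC on the other strand) occurred 5 times before Tgfb1 and 1 time in the stretch shown for Ltbp2, whose uncut window held 2, and in 32.7% of all windows. In neither gene did it overlap a marked core. Neither the palindrome GTCTAGAC (0.167% of all windows) nor the AP-1 letters TGANTCA (6.75%) was found in the windows of the 7 genes that were searched. These matches describe letters only.

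In Tg26 kidneys all 3 ligands and Ltbp2 were several-fold higher than in WT kidneys, whereas the receptors and the SMADs differed by less than 1.3-fold. Of the 10 genes, 5 were called higher and 0 lower in Tg26 mice, against 26.2% of all tested genes called, 15.7% higher and 10.5% lower, in this comparison. The median log2 fold change of the 10 genes was 0.34, and that of all tested genes was -0.01. A bulk library cannot tell more RNA per cell from more cells of a type.

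**Figure D1:**
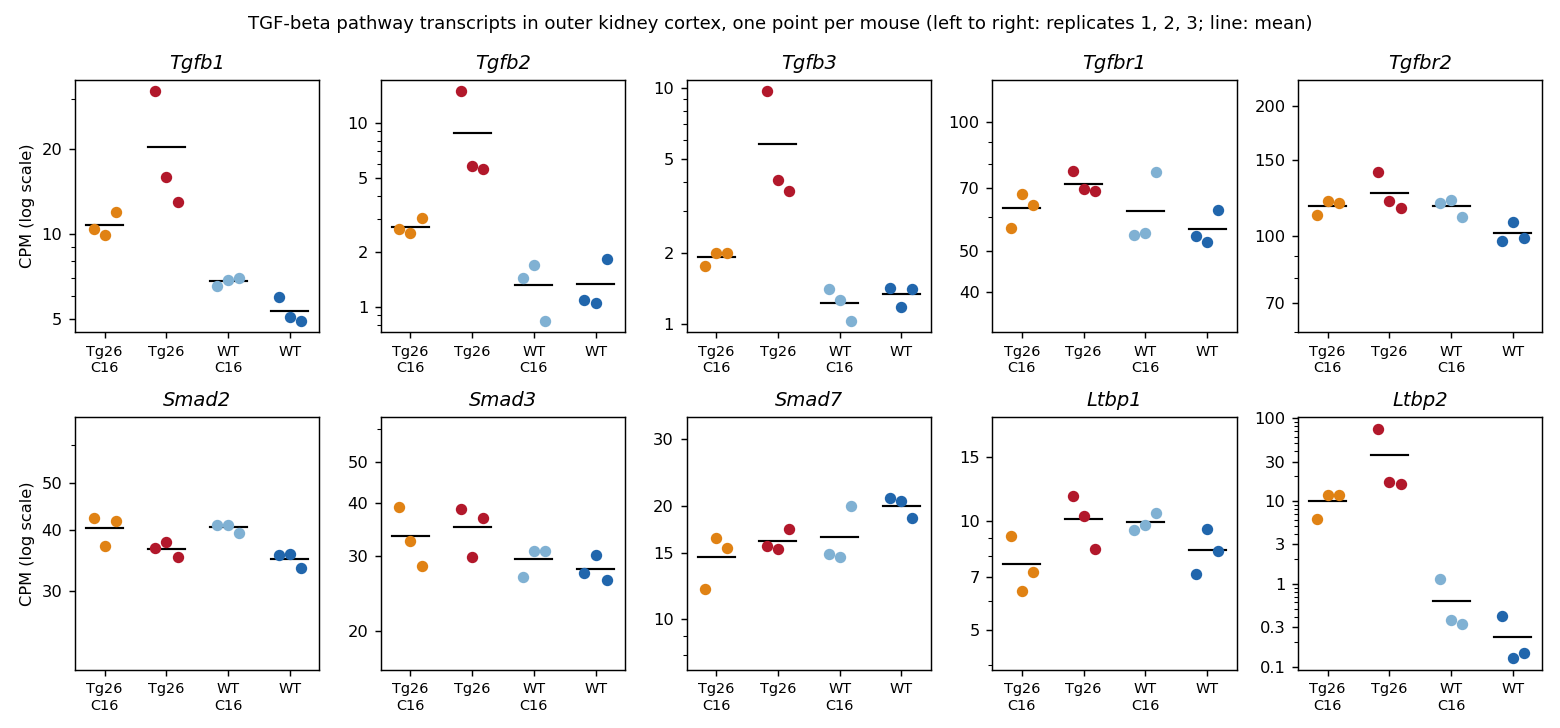
CPM (vertical axis, log scale, its range differing between panels) of the 10 genes in C16-treated Tg26, untreated Tg26, C16-treated WT and untreated WT mice; each point is 1 mouse, replicates 1 to 3 from left to right, and the line is the mean of 3. The 3 ligands and Ltbp2 stand highest in untreated Tg26 mice, with Tg26 replicate 1 on top, while the receptors and SMADs stay within narrow ranges.

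Tgfb1, the ligand most studied in kidney fibrosis, lies on chromosome 7 (mm10, 25687002 to 25705077, plus strand). It measured 32.1, 15.9 and 12.96 CPM in Tg26 mice, against 6.00, 5.07 and 4.91 CPM in WT mice. Even the lowest Tg26 mouse was above the highest WT mouse, as was so for 21.5% of all tested genes. The log2 fold change was 1.93 (SE 0.279, edgeR adjusted p = 0.000851), and without Tg26 replicate 1 it was 1.43 (adjusted p = 0.000294).

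Tgfb2, a ligand with a known part in development of the kidney, lies on chromosome 1 (186622792 to 186705989, minus strand). It was found at 14.9, 5.81 and 5.63 CPM in Tg26 mice, against 1.10, 1.06 and 1.83 CPM in WT mice, where 24 to 38 counts a library stood behind each value. The groups did not overlap, and Tg26 replicate 1 was well above its group mates. The log2 fold change was 2.73 (SE 0.410, edgeR adjusted p = 0.00103), the largest of the 3 ligands, and 2.10 (adjusted p = 0.00129) without Tg26 replicate 1.

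Tgfb3, the third ligand, lies on chromosome 12 (86056745 to 86079041, minus strand). Its levels were 9.67, 4.06 and 3.64 CPM in Tg26 mice, against 1.42, 1.182 and 1.40 CPM in WT mice, again with no overlap. The log2 fold change came to 2.12 (SE 0.349, edgeR adjusted p = 0.00163), or 1.52 (adjusted p = 0.00145) without Tg26 replicate 1. Ttll5 lies on the opposite strand of this locus and shares 0 exon bases with it.

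The mix of the 3 ligands was compared as well as their sum. Per kilobase of exon, the summed level of the 3 ligands was 7.25 ± 3.95 CPM in Tg26 mice, against 1.68 ± 0.133 CPM in WT mice (SD, n = 3 each). Tgfb1 made up 56.1% ± 2.46 of that sum in Tg26 mice and 62.9% ± 4.95 in WT mice. The share of Tgfb2 was 20.5% ± 1.58 in Tg26 mice and 13.7% ± 4.29 in WT mice, and that of Tgfb3 was 23.3% ± 0.907 and 23.4% ± 0.755. The log2 ratio of Tgfb2 to Tgfb1 within a library differed by 0.73 between Tg26 and WT mice, and the ranges overlapped. The two-sided exact permutation p was 0.2 (adjusted p = 0.333 over 15 ratio tests). With 3 against 3 mice this p cannot fall below 0.1, so none of the ratio tests could pass 0.05. Without Tg26 replicate 1 the summed level in Tg26 mice was 4.98 CPM per kilobase, with shares of 57.2% for Tgfb1 and 19.9% for Tgfb2.

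Ltbp2, which belongs to the fibrillin and LTBP family but is known not to bind latent TGF-beta itself, lies on chromosome 12 (84783212 to 84876532, minus strand) and had the largest difference of the 10 genes. It stood at 75.5, 16.9 and 16.1 CPM in Tg26 mice, against 0.412, 0.127 and 0.145 CPM in WT mice. All 3 WT libraries together held 15 counts, while the Tg26 libraries held 3366. The ratio of normalized counts was 168 (95% interval from counting error alone, 102 to 301), and the fitted log2 fold change was 7.29 (SE 0.842, edgeR adjusted p = 0.000302). Only 0.118% of tested genes had a higher log2 fold change. The fitted value was 6.15 (adjusted p = 0.000158) without Tg26 replicate 1 and 8.01 without WT replicate 1, which held 9 of the WT counts. D030025P21Rik, an antisense gene, shares 764 exon bases with Ltbp2 but held 13 counts over the 12 libraries.

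Ltbp1, which does carry latent TGF-beta into the matrix, lies on chromosome 17 (75005568 to 75392512, plus strand). It showed 11.7, 10.3 and 8.36 CPM in Tg26 mice, against 7.14, 9.50 and 8.28 CPM in WT mice, and these ranges overlapped. Its log2 fold change of 0.29 (95% interval -0.09 to 0.66, edgeR adjusted p = 0.241) did not pass, and it was 0.16 without Tg26 replicate 1. The LTBPs of the set thus ranged from no detectable difference to the largest one measured among the 10 genes.

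Tgfbr2, the receptor that binds ligand first, lies on chromosome 9 (116084293 to 116175360, minus strand). It had 141, 121 and 116 CPM in Tg26 mice, against 97.8, 108 and 99.2 CPM in WT mice. The groups did not overlap, although the log2 fold change was only 0.31 (SE 0.0932, edgeR adjusted p = 0.0300). That call was the least firm of the 5, being lost in 7 of 20 alternatives. Among these were fits without Tg26 replicate 1 (adjusted p = 0.101), WT replicate 1 (0.0889), WT replicate 2 (0.0504) and WT replicate 3 (0.0839).

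Tgfbr1, the signaling receptor, lies on chromosome 4 (47353222 to 47414931, plus strand). Its 77.1, 69.6 and 68.9 CPM in Tg26 mice were all above the 54.2, 52.6 and 62.2 CPM in WT mice. It did not pass with a log2 fold change of 0.35 (95% interval 0.06 to 0.65, edgeR adjusted p = 0.0729), but did without C16-treated WT replicate 3 (adjusted p = 0.0263). The log2 ratio of Tgfbr2 to Tgfbr1 within a library was 0.48 in Tg26 mice and 0.53 in WT mice. The difference was -0.05 (two-sided exact permutation p = 0.8, in a test that cannot give less than 0.1).

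Smad2, a receptor-activated SMAD on chromosome 18 (76241580 to 76310963, plus strand), was nearly level. It read 36.7, 37.8 and 35.2 CPM in Tg26 mice, against 35.6, 35.6 and 33.3 CPM in WT mice. The log2 fold change was 0.07 (95% interval -0.10 to 0.24, edgeR adjusted p = 0.541). Its groups overlapped, Tg26 replicate 3 lying inside the WT range.

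Smad3, its partner and the SMAD most tied to matrix genes, lies on chromosome 9 (63646767 to 63757994, minus strand). It gave 38.7, 29.9 and 36.9 CPM in Tg26 mice, against 27.5, 30.2 and 26.4 CPM in WT mice, with Tg26 replicate 2 inside the WT range. The log2 fold change of 0.33 (SE 0.131, edgeR adjusted p = 0.0883) did not pass, although it did without Tg26 replicate 2 (0.43, adjusted p = 0.0335).

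Smad7, the inhibitory SMAD on chromosome 18 (75367529 to 75395935, plus strand), was the one member with a negative value. It was measured at 15.7, 15.3 and 17.3 CPM in Tg26 mice, against 20.9, 20.5 and 18.5 CPM in WT mice. Every Tg26 mouse was below every WT mouse, as was so for 18.1% of all tested genes. The log2 fold change of -0.31 (95% interval -0.63 to 0.00, edgeR adjusted p = 0.131) did not pass.

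Smad7 was also set against its activating partners within each library. The log2 ratio of Smad7 to Smad3 averaged -0.82 (range -1.01 to -0.67) in Tg26 mice and -0.19 (range -0.26 to -0.10) in WT mice. That of Smad7 to Smad2 averaged -0.22 (range -0.34 to -0.06) in Tg26 mice and 0.16 (range 0.12 to 0.19) in WT mice. Both had an exact two-sided permutation p of 0.1, the smallest that 3 against 3 mice can give, so neither could pass. The adjusted p was 0.214 over 15 such ratio tests. Without Tg26 replicate 1 the ratios averaged -0.73 to Smad3 and -0.20 to Smad2 in Tg26 mice. Both ratios were also lower with C16 among WT mice. They averaged -0.56 (range -0.78 to -0.33) to Smad3 and -0.35 (range -0.53 to -0.02) to Smad2. Neither range overlapped that of untreated WT mice, and again neither difference could pass (two-sided exact permutation p = 0.1, adjusted p = 0.214 each). Smad7 itself overlapped between these groups (log2 fold change -0.28, edgeR adjusted p = 0.684). It had 14.9, 14.6 and 20 CPM in the treated mice.

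Scaling mattered for the small differences. With library sizes alone, 9 of the 10 genes were called higher, where 34.4% of all tested genes were called (5267 of 16094 higher). The median of all genes then moved to 0.29 on the log2 scale. Of the calls over all genes 95.1% were higher in Tg26 mice, against 59.9% with TMM. Relative to that median Smad7 was at -0.30, Smad2 at 0.08 and Tgfbr1 at 0.37, close to the TMM values. Of the SMAD regulators described below, 9 of 16 were called higher with library sizes alone, beside the 34.4% of all tested genes called. Their median was 0.11 relative to all genes. In that setting the median of the BMP and activin arm was 0.20, or -0.10 relative to all genes.

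The order of levels also changed. Per kilobase of exon, Tgfbr2 (15.4 CPM in Tg26 mice and 12.4 in WT mice) and, after it, Tgfbr1 (8.62 in WT mice) ranked highest in both. In WT mice Ltbp2 was last at 0.0278 CPM per kilobase, and no neighbours in the order overlapped. In Tg26 mice it ranked 4 of 10 at a mean of 4.42 CPM per kilobase, with a range of 1.97 to 9.23. The ranges of neighbours among Smad3, Ltbp2, Smad2, Tgfb1 and Smad7 overlapped. That rank rests on Tg26 replicate 1, with 75.5 CPM of Ltbp2 against 16.9 and 16.1 CPM in replicates 2 and 3. The lowest Ltbp2 value per kilobase, 1.97, was below the lowest of Smad7 (3.39) and of Tgfb1 (2.57). The ligands Tgfb2 and Tgfb3 and Ltbp1 took the last places in Tg26 mice, also with overlapping ranges.

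With C16 in Tg26 mice, Tgfb2 and Tgfb3 were lower and Tgfb1 did not pass, and both calls were lost without Tg26 replicate 1. Of the 10 genes, 2 were called lower (Tgfb2 and Tgfb3) and 0 higher in C16-treated against untreated Tg26 mice, where 3.42% of all tested genes were called, 2.66% lower and 0.758% higher. The median log2 fold change of the 10 genes was -0.30, beside -0.01 over all tested genes. The untreated Tg26 mice are the same ones as in the comparison with WT mice, so the values are set side by side below and not correlated.

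Tgfb2 was at 2.64, 2.52 and 3.04 CPM in C16-treated Tg26 mice, against 14.9, 5.81 and 5.63 CPM in untreated Tg26 mice. All treated mice were below all untreated ones, at a log2 fold change of -1.68 (SE 0.383, edgeR adjusted p = 0.0410). Without Tg26 replicate 1 the value was -1.06 (adjusted p = 0.126) and did not pass.

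Tgfb3 was at 1.75, 1.99 and 2.0 CPM in C16-treated Tg26 mice, against 9.67, 4.06 and 3.64 CPM in untreated Tg26 mice, again with no overlap. Its log2 fold change was -1.60 (SE 0.336, edgeR adjusted p = 0.0373), and -1.01 (adjusted p = 0.0824) without Tg26 replicate 1. Both calls are thus close to the threshold.

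They were also lost when other single libraries were left out, including ones of groups outside the comparison. For Tgfb2 the edgeR adjusted p was 0.0621 without WT replicate 2, 0.0595, 0.0575 and 0.0504 without C16-treated WT replicates 1, 2 and 3, and 0.167, 0.118 and 0.0767 without C16-treated Tg26 replicates 1, 2 and 3. For Tgfb3 it was 0.0570 without WT replicate 2, 0.0529 and 0.0564 without C16-treated WT replicates 1 and 2, and 0.154, 0.110 and 0.0702 without C16-treated Tg26 replicates 1, 2 and 3. In all, the call was lost in 11 of 20 alternatives for Tgfb2 and in 10 for Tgfb3, among them a covariate of Y-linked expression (0.0808 for Tgfb2 and 0.0584 for Tgfb3) and a fit of the 2 groups alone (0.139 for Tgfb2 and 0.141 for Tgfb3). The direction was the same in all 20 for both genes.

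Tgfb1 was at 10.4, 9.89 and 12.0 CPM in C16-treated Tg26 mice, against 32.1, 15.9 and 12.96 CPM in untreated Tg26 mice. The groups did not overlap, as in the lower direction was so for 15.1% of all tested genes, but the log2 fold change of -0.92 (SE 0.267, edgeR adjusted p = 0.0698) did not pass. It was -0.42 (adjusted p = 0.202) without Tg26 replicate 1. With Tg26 replicate 2 or 3 left out instead, it passed (adjusted p = 0.0427 and 0.0256). With all 12 libraries it also passed in DESeq2 (-0.92, adjusted p = 0.0186) and with no filter on low counts (-0.92, adjusted p = 0.0352).

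Ltbp2 was at 6.18, 11.9 and 11.9 CPM in C16-treated Tg26 mice, against 75.5, 16.9 and 16.1 CPM in untreated Tg26 mice. Here too the groups were apart, and the log2 fold change was -1.85 (SE 0.561, edgeR adjusted p = 0.0756). Much of that size came with 1 mouse, since the value was -0.72 (adjusted p = 0.361) without Tg26 replicate 1 and passed at -2.19 and -2.21 without Tg26 replicate 2 or 3 (adjusted p = 0.0374 and 0.0398).

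**Figure D2:**
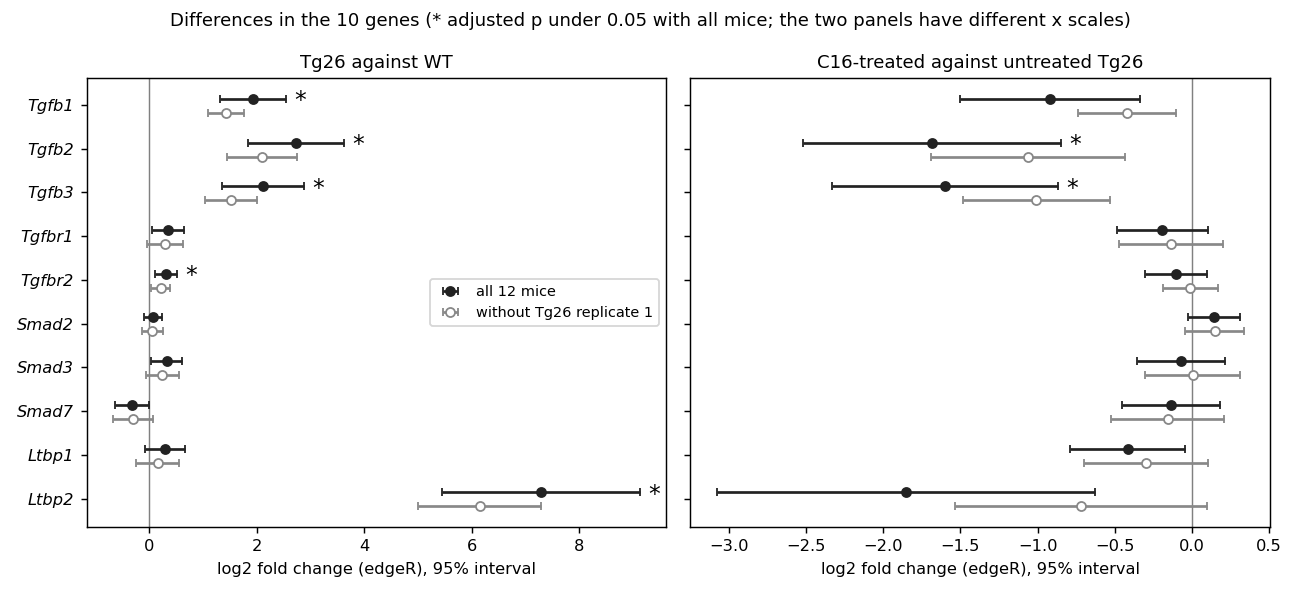
Log2 fold changes of the 10 genes (horizontal axis) with 95% intervals from edgeR for Tg26 against WT mice (left) and C16-treated against untreated Tg26 mice (right), with all 12 mice (filled) and without Tg26 replicate 1 (open); stars mark an adjusted p under 0.05. The Ltbp2 value in Tg26 mice, 7.29, is far from the others, and on the right the open points of Tgfb2 and Tgfb3 lie at -1.06 and -1.01.

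Differences of the remaining members with C16 in Tg26 mice were small, and none of them passed. Ltbp1 had 9.11, 6.41 and 7.26 CPM in C16-treated Tg26 mice, against 11.7, 10.3 and 8.36 CPM in untreated Tg26 mice (log2 fold change -0.42, edgeR adjusted p = 0.154). Tgfbr1 had 56.7, 68.0 and 64.1 CPM in C16-treated Tg26 mice, against 77.1, 69.6 and 68.9 CPM in untreated Tg26 mice (-0.19, adjusted p = 0.399). The treated mice were all below the untreated ones for Tgfbr1, but not for Ltbp1.

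For Tgfbr2 the levels were 112, 121 and 119 CPM in C16-treated Tg26 mice, against 141, 121 and 116 CPM in untreated Tg26 mice (log2 fold change -0.10, 95% interval -0.31 to 0.10). With all 12 libraries Smad2 was the only member with a positive value, 0.14 (95% interval -0.03 to 0.31), from 42.3, 37.2 and 41.7 CPM in C16-treated Tg26 mice, against 36.7, 37.8 and 35.2 CPM in untreated Tg26 mice. Smad3 (-0.07, 95% interval -0.36 to 0.21) and Smad7 (-0.14, 95% interval -0.46 to 0.18) overlapped between the groups as well. The inhibitor Smad7 thus stood at 12.0, 16.4 and 15.4 CPM in C16-treated Tg26 mice, against 15.7, 15.3 and 17.3 CPM in untreated Tg26 mice.

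Of the 10 genes, 1 was called between C16-treated Tg26 mice and untreated WT mice, and no ligand passed. Ltbp2 was called higher in C16-treated Tg26 mice than in untreated WT mice, with a log2 fold change of 5.43 (SE 0.847, edgeR adjusted p = 0.0122), in a comparison where 1.59% of all tested genes were called and 1.35% were called higher. The ratio of its normalized counts was 44.5 (95% counting interval 26.8 to 79.8). The call was lost without WT replicate 2 (adjusted p = 0.0726), WT replicate 3 (0.0709) or C16-treated Tg26 replicate 3 (0.0514).

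All 3 ligands were higher in every C16-treated Tg26 mouse than in every untreated WT mouse, as 14.1% of all tested genes were. Their log2 fold changes were 1.01 for Tgfb1 (edgeR adjusted p = 0.0937), 1.05 for Tgfb2 (0.221) and 0.52 for Tgfb3 (0.473). That of Tgfb1 passed without Tg26 replicate 1 (adjusted p = 0.00408) or 3 (0.0444), with DESeq2 (0.0181), with no filter (0.0357), with the Y-linked covariate (0.0456) and with the 2 groups alone (0.0201), 6 of 20 alternatives in all. Smad7 was lower in each of these treated mice than in each WT mouse, as 12.5% of all tested genes were, at -0.45 (95% interval -0.77 to -0.13, adjusted p = 0.140).

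Against C16-treated WT mice, Ltbp2 was again the 1 gene called higher in C16-treated Tg26 mice (log2 fold change 3.99, SE 0.733, edgeR adjusted p = 0.0372), where 0.696% of all tested genes were called and 0.69% were called higher. Levels were 6.18, 11.9 and 11.9 CPM in C16-treated Tg26 mice, against 1.16, 0.369 and 0.327 CPM in C16-treated WT mice. This call was lost in 8 of the 12 fits that left out 1 library. They were those without WT replicates 1 (adjusted p = 0.0504), 2 (0.0618) and 3 (0.0607), without C16-treated WT replicates 1 (0.105), 2 (0.188) and 3 (0.131), and without C16-treated Tg26 replicates 2 (0.133) and 3 (0.147). Tgfb1 had a value of 0.67 (adjusted p = 0.453), which passed without Tg26 replicate 1 (0.65, adjusted p = 0.0369).

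In WT mice no member passed with C16. Of the 10 genes 0 were called, as of all tested genes (0%), and 2 had an unadjusted edgeR p under 0.05, against 7.45% of all tested genes; DESeq2 also called 0 of 10, and 34 of all genes. The 2 were Smad2, with 41.1, 41.1 and 39.5 CPM in C16-treated WT mice, against 35.6, 35.6 and 33.3 CPM in untreated WT mice (log2 fold change 0.22, adjusted p = 0.619), and Tgfbr2 (0.21, adjusted p = 0.658). Tgfb1 was at 6.52, 6.86 and 6.96 CPM in C16-treated WT mice, against 6.00, 5.07 and 4.91 CPM in untreated WT mice. These groups did not overlap, as in this direction was so for 6.61% of all tested genes, and the difference was 0.35 on the log2 scale (95% interval -0.27 to 0.96, adjusted p = 0.792). Ltbp2 had 39 counts in C16-treated WT mice and 15 in untreated WT mice, a ratio of 2.79 (95% counting interval 1.502 to 5.44) that did not pass (adjusted p = 0.784) and of which C16-treated WT replicate 1 held 25 counts.

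Whether the C16 effect differed between the genotypes was tested as the interaction of genotype and treatment. Of the 10 genes 0 were called, as of all tested genes (0%), while 6 had an unadjusted edgeR p under 0.05, against 12.7% of all tested genes; DESeq2 called 0 of 10, and 158 of all genes. The 6 were Tgfb1 (-1.27, adjusted p = 0.286), Tgfb2 (-1.68, 0.317), Tgfb3 (-1.49, 0.313), Ltbp2 (-3.30, 0.334), Ltbp1 (-0.67, 0.323) and Tgfbr2 (-0.31, 0.375). Without Tg26 replicate 1 the values were -0.77 for Tgfb1, -1.06 for Tgfb2, -0.90 for Tgfb3, -2.17 for Ltbp2, -0.56 for Ltbp1 and -0.22 for Tgfbr2. A negative value means that C16 went with a lower level in Tg26 mice relative to its effect in WT mice.

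The other genes of the pathway were read from lists chosen with earlier results of these data known, so their counts are descriptions. Among proteins that hold or release latent TGF-beta (integrins, LTBPs, thrombospondin and others), 10 of 13 were called higher in Tg26 mice and 0 lower. Over all tested genes the shares were 15.7% higher and 10.5% lower. The median log2 fold change of this list was 0.98. Thbs1, thrombospondin 1, which can release the active ligand, averaged 71.3 ± 32.9 CPM in Tg26 mice, against 12.3 ± 0.548 CPM in WT mice (SD, n = 3 each; log2 fold change 2.54, edgeR adjusted p = 0.000234). Ltbp3 (0.98, adjusted p = 0.000647) and Ltbp4 (0.91, adjusted p = 0.000715), both of which bind latent TGF-beta, were also higher. Furin, the convertase that cleaves the TGF-beta precursor, did not pass at -0.28 (adjusted p = 0.0797; named after its value was seen).

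Of receptors and co-receptors beyond the set, 2 of 7 were called higher and 0 lower, at a median of 0.09, which is near the share over all tested genes (26.2% called, 15.7% higher). These were Acvrl1, a type I receptor of endothelial cells (26.1 ± 3.75 CPM in Tg26 mice, against 14.6 ± 0.965 CPM in WT mice, log2 fold change 0.84, edgeR adjusted p = 0.000851), and its co-receptor Eng (0.35, adjusted p = 0.0477). Tgfbrap1, which binds the receptors, was at -0.31 (adjusted p = 0.0924). Endothelial markers as a whole summed to 488 to 528 CPM in Tg26 mice, against 457 to 505 CPM in WT mice.

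Of 16 SMAD partners and regulators, 1 was called higher, 1 lower and 14 neither, at a median of 0.10. Over all tested genes 15.7% were called higher and 10.5% lower. Pmepa1, a target that restrains the pathway, averaged 42.3 ± 13.9 CPM in Tg26 mice, against 26.1 ± 2.35 CPM in WT mice (SD, n = 3 each; log2 fold change 0.70, edgeR adjusted p = 0.0236). The lower one was Ppm1a, a phosphatase of Smad2 and Smad3 (-0.40, adjusted p = 0.0135). Tgif2, a corepressor, did not pass at 0.78 (adjusted p = 0.0558), and Smad4 was at 0.00 (adjusted p = 0.982; named after its value was seen).

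Known TGF-beta target genes showed larger differences. Of 20 listed genes 18 were tested (Il11 and Cthrc1 were too low). Of these, 15 were called higher in Tg26 mice and 0 lower, against 15.7% and 10.5% of all tested genes. Their median log2 fold change was 2.73. Vim, the intermediate filament of mesenchymal cells, was at 2.46 (edgeR adjusted p = 0.000175). Ccn2, the connective tissue growth factor, averaged 222 ± 16.4 CPM in Tg26 mice, against 79.1 ± 14.02 CPM in WT mice (SD, n = 3 each; 1.49, adjusted p = 0.000431). Tgfbi, a matrix protein named for its induction by TGF-beta, was at 1.63 (adjusted p = 0.000469). Of these target genes 14 were called without Tg26 replicate 1, where 16.6% of all tested genes were called.

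Among matrix proteins that bind TGF-beta, 5 of 7 were called higher and 0 lower, at a median of 1.61. They were Dcn, Lum, Bgn, Vcan and Emilin1, the last 2 named because the count is small. The shares over all tested genes were 15.7% higher and 10.5% lower. Decorin (Dcn), a small proteoglycan that can hold ligand away from its receptor, averaged 44.7 ± 8.13 CPM in Tg26 mice, against 17.0 ± 1.92 CPM in WT mice (SD, n = 3 each; log2 fold change 1.40, edgeR adjusted p = 0.000227). Lum was at 3.35 (adjusted p = 0.000398) and Bgn at 1.61 (adjusted p = 0.00207).

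Of 18 genes of the related bone morphogenetic protein (BMP) and activin arm, 3 were called higher and 1 lower in Tg26 mice, with a median of -0.10. These counts are near the shares over all tested genes, 15.7% higher and 10.5% lower. The higher ones were Grem1, an antagonist of BMPs (10.6 ± 2.23 CPM in Tg26 mice, against 0.241 ± 0.131 CPM in WT mice, log2 fold change 5.43, edgeR adjusted p = 0.000125), Fst, the activin antagonist follistatin (4.47, adjusted p = 0.00315), and Inhba, an activin subunit (3.92, adjusted p = 0.00206). Lower was Bmp7, a BMP of the tubule that is known to counter TGF-beta, with 35.4 ± 8.47 CPM in Tg26 mice, against 50.1 ± 3.22 CPM in WT mice (-0.50, adjusted p = 0.0239; named after its value was seen). Without Tg26 replicate 1, where 16.6% of all tested genes were called, Bmp7 was no longer called. The numbers called higher were then 3 in this arm, 7 for activation, 1 for receptors, 0 for SMAD regulators and 5 for matrix binders.

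**Figure D3:**
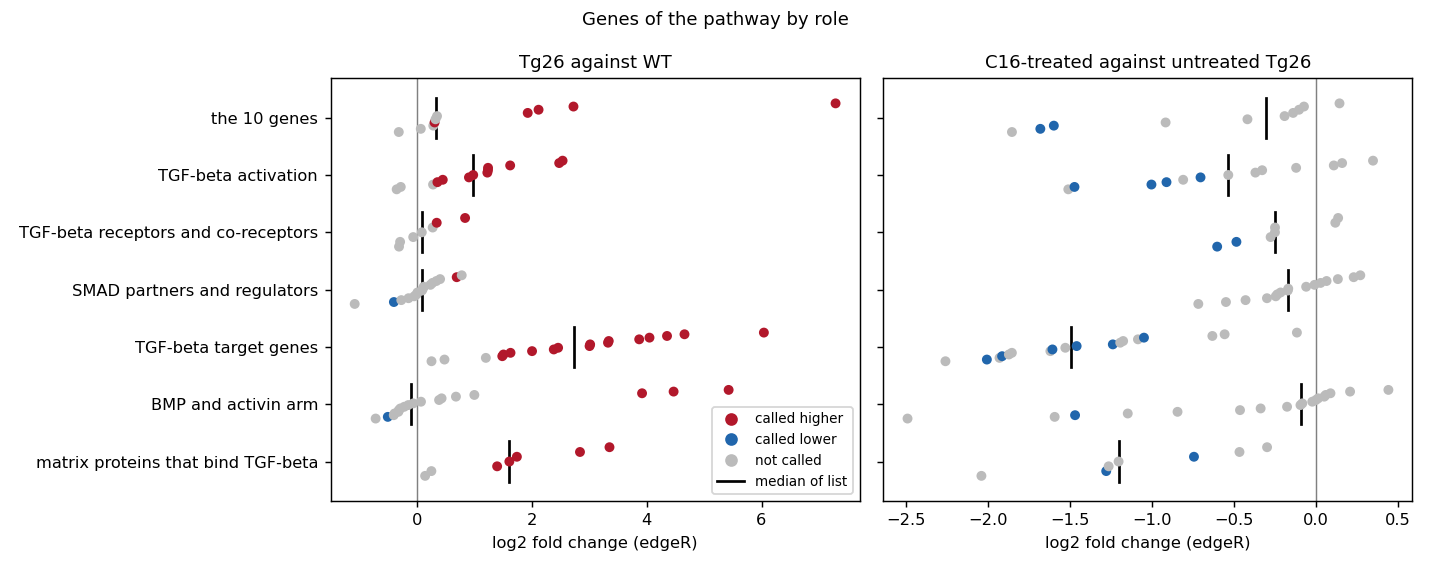
Log2 fold changes (horizontal axis, edgeR) of the 10 genes and of 6 lists of pathway genes for Tg26 against WT mice (left) and C16-treated against untreated Tg26 mice (right); each point is a gene, coloured by its call, and the black line is the list's median. Target genes and matrix binders lie to the right in Tg26 mice (medians 2.73 and 1.61), while SMAD partners and regulators sit around 0 (median 0.10).

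With C16 in Tg26 mice, where 3.42% of all tested genes were called and 2.66% lower, 6 of 18 target genes were lower and 0 higher. Their median log2 fold change was -1.49, and all 18 values were negative. In this comparison 4 of 13 activation genes were lower (Thbs1, Ltbp3, Ltbp4 and Lrrc32, a cell-surface anchor of latent TGF-beta). The same was so of 2 of 7 receptor genes (Eng and Acvrl1), 2 of 7 matrix binders (Dcn and Bgn) and 1 of 18 genes of the BMP and activin arm (Grem1). Of the SMAD partners and regulators 0 of 16 were called. With DESeq2, which called 12.2% of all genes here, the counts were 12 of 18 target genes, 6 of 13 activation genes, 2 of 7 receptor genes, 5 of 7 matrix binders, 2 of 18 genes of the BMP and activin arm and 1 of 16 SMAD regulators, all lower. Without Tg26 replicate 1 the medians were -0.91 for target genes, -0.22 for activation genes and -0.84 for matrix binders. Every one of these edgeR list counts was then 0, when 10 of all 16094 tested genes were called.

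Fibroblast, pericyte and macrophage markers were higher along with the ligands, as were kidney injury markers. Markers of other cell types mostly were not. Called higher in Tg26 mice were 1 of 8 endothelial, 1 of 8 podocyte and 1 of 10 T and B cell markers. Of collecting duct markers 0 of 7 were called, and of thick limb and distal tubule markers 0 of 6 were higher and 1 lower. Over all tested genes 15.7% were higher and 10.5% lower. Summed fibroblast and pericyte markers were at 433, 255 and 238 CPM in Tg26 mice, against 88.9, 107 and 122 CPM in WT mice, and 6 of 8 were called higher. Summed macrophage markers were at 1171, 775 and 686 CPM in Tg26 mice, against 132, 114 and 99.7 CPM in WT mice, and 10 of 10 were called higher. Summed kidney injury markers were at 4159, 1078 and 1289 CPM in Tg26 mice, against 379, 436 and 498 CPM in WT mice. Of these, 8 of 8 were called higher, at a median log2 fold change of 4.12. Tg26 replicate 1, which had the highest level of all 3 ligands and of Ltbp2, was also highest for each of these sums.

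Proximal tubule markers summed to 16580, 33900 and 30110 CPM in Tg26 mice, against 51570, 48910 and 45800 CPM in WT mice. Of these markers 9 of 12 were called lower, against 10.5% of all tested genes. Podocyte markers summed to 347 to 443 CPM in Tg26 mice, against 352 to 376 CPM in WT mice. No listed marker was at 0 in any group. In C16-treated Tg26 mice the fibroblast and pericyte sum was 125, 117 and 154 CPM, below all untreated Tg26 mice (433, 255 and 238 CPM), and the macrophage sum was 278, 436 and 561 CPM, below their 1171, 775 and 686 CPM. Of these markers 6 of 8 and 2 of 10 were called lower, where 2.66% of all tested genes were called lower and 0.758% higher. The proximal tubule sum was 45550, 40800 and 36540 CPM in C16-treated Tg26 mice, above all untreated Tg26 mice (16580, 33900 and 30110 CPM), with 12 of 12 markers positive and 1 called higher. Without Tg26 replicate 1, 0 of the fibroblast and pericyte, macrophage and proximal tubule markers were called with C16, when 10 of all 16094 tested genes were. The medians were then -0.85, -0.87 and 0.33. Between Tg26 and WT mice 6 of 8 and 9 of 10 were still higher and 7 of 12 lower, when 16.6% of all tested genes were called. The part of these cell types in the ligand differences was not tested.

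**Figure D4:**
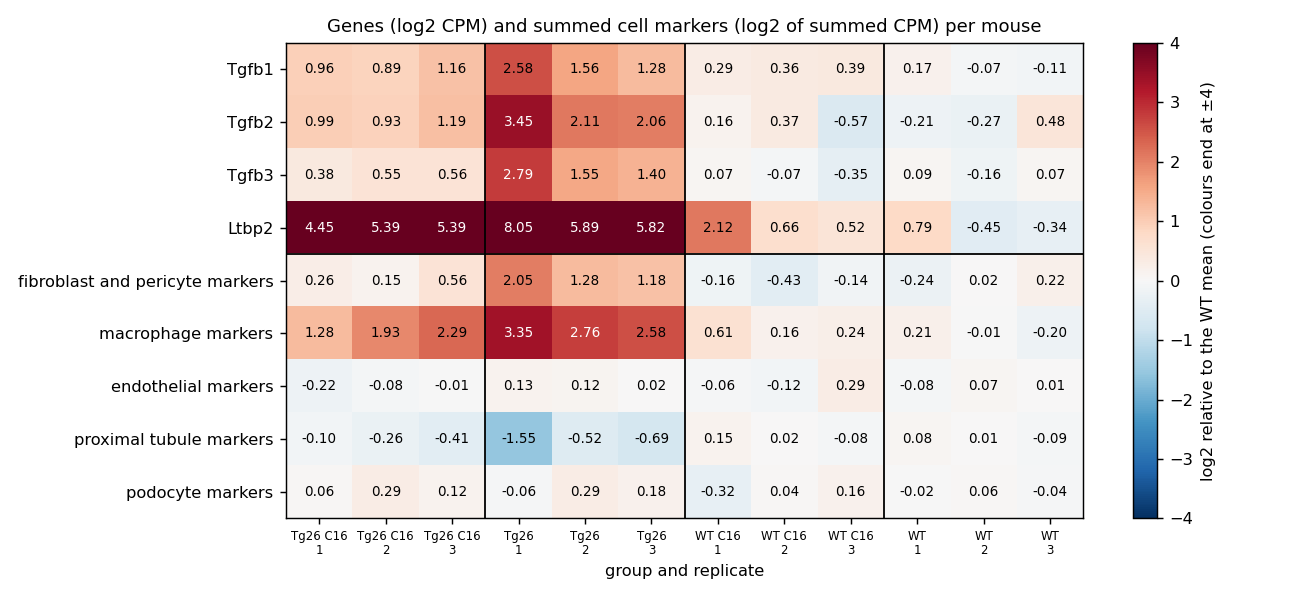
Log2 level relative to the mean of the untreated WT mice, printed in each cell, for the 3 ligands and Ltbp2 (log2 CPM) and for 5 summed marker lists (rows) in each of the 12 mice (columns, by group and replicate); colours end at 4 in either direction. Tg26 replicate 1 is highest for the 3 ligands, Ltbp2, fibroblast and macrophage markers and lowest for proximal tubule markers.

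The genes whose pattern over the 12 libraries lay nearest to each called member were sought among 13770 tested genes with a mean of at least 1 CPM, by the root mean square difference of centred log2 CPM. Nearest to Tgfb1 were Sparc, a matrix-binding glycoprotein (0.12), and Pea15a (0.12). Tgfb2 lay nearest to Cdh3, a cadherin (0.27), and Col5a3, a chain of type V collagen (0.28). Tgfb3 was closest to Pdlim7 (0.13) and Bmp1, a proteinase that processes procollagens (0.17). For Ltbp2 the nearest were Ccl2, a chemokine that draws monocytes (0.63), and Muc4, a membrane mucin (0.68), both much farther away than for the ligands. Tgfbr2, which varied little, was closest to Sgsm3 (0.06) and B4galt3 (0.07). The 12 libraries fall into 4 groups, so these distances mostly follow the group means.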

How the data were processed

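Outer kidney cortex RNA of 12 mice was sequenced as stranded paired-end mRNA libraries. The authors trimmed reads with Cutadapt, mapped them with STAR (2.7.0f) to the mm10 genome and counted Ensembl 96 genes by RSEM (1.3.1). What was deposited is a table of expected counts from RSEM, whole numbers with no normalization, whose 55450 gene IDs all matched the GENCODE annotation in use.

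Groups came from the sample titles. Genes passing edgeR's filterByExpr (count minimum 10, total minimum 15) were kept, 16094 in all. Expected counts were scaled by TMM (factors 0.901 to 1.22) and tested with edgeR 4.0.16 (R 4.3.3) by a quasi-likelihood fit of the 4 groups together, with no covariate and Benjamini-Hochberg adjustment. The code was tested on simulated data. Alternatives, 20 in all, were DESeq2 1.42.0, other scalings and filters, a replicate block, Y-linked expression as a covariate, the 2 compared groups alone, and each library left out once. Within-library ratios used a pseudocount of 2 and exact permutation tests. No replicate pair agreed within sampling noise (lowest chi-square per gene 15.4). The edgeR p-values weigh a group difference against a spread between mice that is estimated over the 4 groups together. Counting intervals cover counting error only.

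The members and gene lists were chosen with earlier results of these data known, and the ratio tests were added after the values were seen. Named are all 10 members, in each pathway list the 3 genes with the smallest p between Tg26 and WT mice and any called against most of the list, and the 2 genes nearest in pattern to each called member. Promoters are RefSeq's (7 of 10 members were searched, without entries on chromosome 18). Protein sequences and single-nucleus libraries were not used here.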

Additional observations from a re-analysis of the deposited data

Results flagged for a closer look

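The fitted effect of C16 on Tgfb1 had opposite signs in the genotypes, with no overlap between treated and untreated mice in either. In Tg26 mice 15.1% of all tested genes were apart in the lower direction. In WT mice 6.61% were apart in the higher direction. Neither effect passed. It was -0.92 in Tg26 mice (edgeR adjusted p = 0.0698), or -0.42 (0.202) without Tg26 replicate 1. In WT mice it was 0.35 (95% interval -0.27 to 0.96, adjusted p = 0.792). C16-treated Tg26 mice had 9.89 to 12.0 CPM, all below the 12.96 to 32.1 CPM of untreated Tg26 mice, whereas C16-treated WT mice had 6.52 to 6.96 CPM, all above the 4.91 to 6.00 CPM of untreated WT mice. The difference between the effects, in Tg26 mice minus in WT mice, was -1.27 on the log2 scale (SE 0.388). Tested as the interaction term, it did not pass (edgeR adjusted p = 0.286 over all genes), and over its 19 alternatives it lay between -1.50 and -0.77, with adjusted p between 0.0950 and 0.507. Groups of 3 mice are too small for a test of single outlying samples.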

How the results depend on the processing

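Of 1190 single-gene values under the alternatives, 1130 stayed on their side of the threshold, 39 lost a call, 21 gained one and 0 reversed with a call. Tgfb1, Tgfb2, Tgfb3 and Ltbp2 were called between Tg26 and WT mice in all 20. With library sizes only, 9 genes were higher in Tg26 than in WT mice in place of 5, when 34.4% of all tested genes were called in place of 26.2%. C16-treated Tg26 mice had 2 genes called lower than untreated ones, which became 3 with DESeq2 and 4 with no filter. The number was 0 with the Y-linked covariate, 0 with the 2 groups compared alone, and 0 to 4 without 1 library. The 1 gene higher in C16-treated Tg26 than in WT mice became 2 with DESeq2, library sizes only, no filter, the Y-linked covariate and the 2 groups alone, and 0 to 2 without 1 library. The 1 gene higher than in C16-treated WT mice became 0 to 2 without 1 library. The cause of these changes was not tested.

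Over all genes, the 4219 calls between Tg26 and WT mice became 1662 with the Y-linked covariate, 1995 with the 2 groups alone and 2455 (without WT replicate 2) to 4791 without 1 library. The 550 calls of C16 in Tg26 mice became 1917 with DESeq2, 1104 with no filter, 94 with the Y-linked covariate, 0 with the 2 groups alone and 0 to 1505 without 1 library. With library sizes only, 9.88% of the calls were higher in that comparison (22.2% with TMM). For C16-treated Tg26 against WT mice, 256 became 873 with DESeq2, 505 with library sizes only, 531 with no filter, 429 with the 2 groups alone and 28 (without WT replicate 2) to 849 (without Tg26 replicate 1) without 1 library; 96% were higher with library sizes only (85.2% with TMM). Against C16-treated WT mice, 112 became 379 with DESeq2, 274 with no filter, 46 with the 2 groups alone and 11 (without C16-treated WT replicate 2) to 300 (without Tg26 replicate 1) without 1 library. For C16 in WT mice 0 became 34 with DESeq2, 2 with no filter and 1 with the 2 groups alone, and for the interaction 158 with DESeq2 and 6 with no filter.

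The titles do not say whether their replicate numbers pair the mice. Same-numbered samples of different groups correlated in their deviations by over 0.1 in 7 of 18 pairs (-0.23 to 0.23), which does not settle it. With a replicate block, the 2 of 10 genes called lower with C16 in Tg26 mice became 0 (edgeR adjusted p = 0.0716 for Tgfb2 and 0.0614 for Tgfb3). The 550 of all genes became 0. The calls between Tg26 and WT mice were then 4051, those of C16-treated Tg26 mice against WT mice 152, and those against C16-treated WT mice 40.

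Depth limits the low genes most, since Ltbp2 had 3 to 9 counts in untreated WT libraries.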
